A study of Mus musculus with 12 samples.

Results

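The genes Cd80, Got1l1, Atp4b, Ano3, Arap2 and Fam221a are described here across mouse pluripotent cells sorted by mitochondrial membrane potential. They are 6 of 23185 named genes on the arrays, and each is read by 1 probe set of the 25206 that the arrays measured. They were chosen by their high minus low differences, from the genes whose mRNA in high-potential cells lay furthest below that in low-potential cells. Those differences are therefore given as descriptions, with no test. The samples were 12 RNA preparations, 3 arrays each of iPSC high, iPSC low, ESC high and ESC low, with replicates that the labels number 2, 3 and 4. ESC are embryonic stem cells, which derive from the inner cell mass of the early embryo, and iPSC are induced pluripotent stem cells, which are made from body cells by reprogramming. All 4 groups came from female C57BL/6 cells grown undifferentiated without serum or feeder cells in 2iLIF medium on gelatin. All were stained with TMRM (tetramethylrhodamine methyl ester), a dye that gathers in mitochondria with a high membrane potential, and high and low name the 2 fractions that flow sorting took by dye content. How many ESC or iPSC lines were used, and whether replicates were separate cultures, is not stated in the labels, so the p-values reflect only how far these arrays of a group lay apart, and that spread may be technical.

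The 6 genes belong to different families. Cd80 encodes a B7 ligand that antigen-presenting cells display to the T-cell surface receptors CD28 and CTLA-4, which stimulate and restrain the T cell. Got1l1 encodes a relative of the cytosolic aspartate aminotransferase Got1, an enzyme of the shuttle that carries reducing equivalents into mitochondria. Atp4b encodes the beta subunit of the proton pump that acidifies the stomach. Ano3 belongs to the anoctamins, membrane proteins that include calcium-activated chloride channels and lipid scramblases, and Arap2 is a GTPase-activating protein that acts on the small GTPase ARF6. Fam221a is a little-studied gene named by sequence similarity.

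Levels are the authors' log2 values, in which 1 unit is a doubling. The lower quartile of the arrays lay between 2.08 and 2.20 and the median between 3.51 and 3.61. Without detection calls a low value cannot be set against background, and levels of different genes are not compared. The mean of the 10 pluripotency markers, among them Pou5f1, Nanog and Sox2, lay between 8.28 and 8.55 in all 12 arrays. It does not stand for each marker. Group means were 10.49 to 10.62 in Nanog, 5.93 to 6.09 in Pou5f1 and 3.87 to 4.01 in Dppa5a. Of the 10 markers 0 passed the test between fractions over both cell types (0 at an unadjusted p under 0.05, limma). Arrays of 1 group correlated at 0.991 to 0.994 (Pearson), and arrays of different groups at 0.986 to 0.994.

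RefSeq promoter windows (GRCm38.p6, 250 bases before to 50 after a start site) were available for 4 of the 6 genes, as 5 windows of 300 bases. The windows of Cd80 and Arap2 are shown because the levels of these genes deviated together from array to array, as described further on, while the windows differ in composition. That of Cd80 lies inside the reference span of the gene, which starts at 38457430, and the start of that span has no window here. Capitals mark the matches found on either strand, which are to the motif TATAAA in the window of Cd80 and to the motif GGGCGG in that of Arap2.
Cd80, chr16:38458683-38458982, plus strand: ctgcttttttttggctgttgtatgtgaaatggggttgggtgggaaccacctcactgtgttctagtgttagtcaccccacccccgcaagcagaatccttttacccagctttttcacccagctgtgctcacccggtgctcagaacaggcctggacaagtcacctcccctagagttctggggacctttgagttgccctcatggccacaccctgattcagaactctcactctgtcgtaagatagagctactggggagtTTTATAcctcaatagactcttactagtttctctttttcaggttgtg
Arap2, chr5:62766128-62766427, minus strand: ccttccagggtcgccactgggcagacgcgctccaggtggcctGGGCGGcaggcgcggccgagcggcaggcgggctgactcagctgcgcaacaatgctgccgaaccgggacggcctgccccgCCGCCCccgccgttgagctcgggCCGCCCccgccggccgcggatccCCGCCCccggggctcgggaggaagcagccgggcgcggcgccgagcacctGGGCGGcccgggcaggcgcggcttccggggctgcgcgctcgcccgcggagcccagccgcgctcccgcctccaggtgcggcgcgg
The Cd80 window held 3 CG dinucleotides and the Arap2 window 47, where all 32851 windows of this length had a median of 7 and quartiles of 3 and 20. The other windows held 17 CG dinucleotides in Fam221a and 8 and 4 at the start sites of Ano3. GGGCGG was found 5 times in the Arap2 window and 7 times in that of Fam221a, and it occurs in 35.7% of all windows. TATAAA, found in 13.6% of all windows, was present in that of Cd80, where it lies just past the start on the opposite strand, and in that of the second Ano3 start site. The first Ano3 window held CACGTG (7.15% of all windows) and that of Fam221a CCAAT (37.4%). The consensus half-site of p53, present in 8.36% of all windows, was in 0 of the 5, which says only that these letters are not in these windows. No sequence feature among those searched was shared by all 4 genes.

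Cd80 had the largest high minus low difference of the 6 genes. It was at 2.89, 2.46 and 2.59 in the iPSC high arrays (replicates 2, 3 and 4), against 5.38, 4.03 and 5.00 in the iPSC low arrays. In ESC it was at 2.77, 2.96 and 3.04 in the high arrays, against 3.33, 5.00 and 4.18 in the low arrays. The high arrays kept to a narrow band in both cell types, while the low arrays were spread over more than 1 log2 unit, and the fractions did not overlap. The difference was -2.16 ± 0.37 (SE) in iPSC, a level 4.46-fold lower, and -1.25 ± 0.37 in ESC. The smallest ESC difference was that of replicate 2, at -0.56, and the largest that of replicate 3, at -2.03. By group mean the order was iPSC low (4.80 ± 0.69, SD, n = 3), ESC low (4.17 ± 0.83), ESC high (2.92 ± 0.14) and iPSC high (2.65 ± 0.22). The low groups overlapped each other, as did the high groups.

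Got1l1 was lower in the high fraction by about as much in each cell type. It was at 5.30, 4.94 and 5.70 in the iPSC high arrays, against 6.21, 6.10 and 6.72 in the iPSC low arrays. The ESC high arrays were at 5.39, 5.90 and 5.74, against 6.85, 6.84 and 6.61 in the ESC low arrays. Every high array lay below every low array, with a gap of 0.20 between the nearest of them. The differences were -1.03 ± 0.21 in iPSC and -1.09 ± 0.21 in ESC, which is 2.05-fold and 2.13-fold lower. The groups ran from ESC low (6.77 ± 0.13) through iPSC low (6.34 ± 0.33) and ESC high (5.68 ± 0.26) to iPSC high (5.31 ± 0.38), and within a fraction the cell types overlapped.

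Atp4b was close to uniform in iPSC high cells and varied widely in ESC low cells. Its values were 3.21, 3.32 and 3.23 in iPSC high arrays, against 3.79, 4.13 and 4.55 in iPSC low arrays. They were 3.44, 2.70 and 3.22 in ESC high arrays, against 4.88, 3.46 and 4.42 in ESC low arrays. Replicate 3 was the lowest array in both ESC fractions, and its low array exceeded the highest ESC high array by 0.02. The differences were -0.90 ± 0.30 in iPSC and -1.13 ± 0.30 in ESC. Group means were 4.25 ± 0.72 in ESC low, 4.16 ± 0.38 in iPSC low, 3.26 ± 0.06 in iPSC high and 3.12 ± 0.38 in ESC high, with overlap between the cell types in each fraction.

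Ano3 stood apart in iPSC low cells. It was at 2.18, 2.44 and 2.16 in iPSC high arrays, against 3.79, 3.56 and 4.09 in iPSC low arrays. In ESC it was at 2.13, 2.43 and 2.29 in high arrays, against 2.69, 2.87 and 2.58 in low arrays. The iPSC low arrays were above all others, the ESC low arrays came next without overlap, and the high groups overlapped. The difference was -1.55 ± 0.14 in iPSC, or 2.94-fold lower, and -0.43 ± 0.14 in ESC, or 1.34-fold lower. The high arrays of both cell types lay near the lower quartile of the arrays (2.08 to 2.20). Without detection calls their distance from background is not known. The iPSC difference exceeded the ESC difference by -1.13 ± 0.20 on the log2 scale, a value given without a test because the iPSC difference helped choose the gene. For the other genes this gap between the differences was -0.91 ± 0.53 in Cd80 and between -0.32 and 0.23 in the remaining 4.

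Arap2 was at 3.99, 3.57 and 4.10 in iPSC high arrays, against 5.09, 4.50 and 5.32 in iPSC low arrays. In ESC its high arrays were at 4.06, 4.27 and 4.42, against 4.90, 5.25 and 4.88 in the low arrays. The fractions were separate in both cell types, with differences of -1.08 ± 0.20 in iPSC and -0.76 ± 0.20 in ESC. Its group means ran from 5.01 ± 0.21 in ESC low and 4.97 ± 0.42 in iPSC low to 4.25 ± 0.18 in ESC high and 3.89 ± 0.28 in iPSC high. Here too the cell types overlapped within each fraction.

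Fam221a had the smallest difference and the tightest replicates. It was at 3.44, 3.57 and 3.55 in iPSC high arrays, against 4.06, 4.08 and 4.28 in iPSC low arrays. The ESC high arrays were at 3.58, 3.80 and 3.83, against 4.54, 4.35 and 4.39 in ESC low arrays. No 2 groups overlapped, and the order was ESC low (4.42 ± 0.10), iPSC low (4.14 ± 0.12), ESC high (3.74 ± 0.14) and iPSC high (3.52 ± 0.07). The high groups were separated by about 0.01, less than their spread. The differences were -0.62 ± 0.10 in iPSC and -0.69 ± 0.10 in ESC, or 1.54-fold and 1.61-fold lower.

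**Figure D1:**
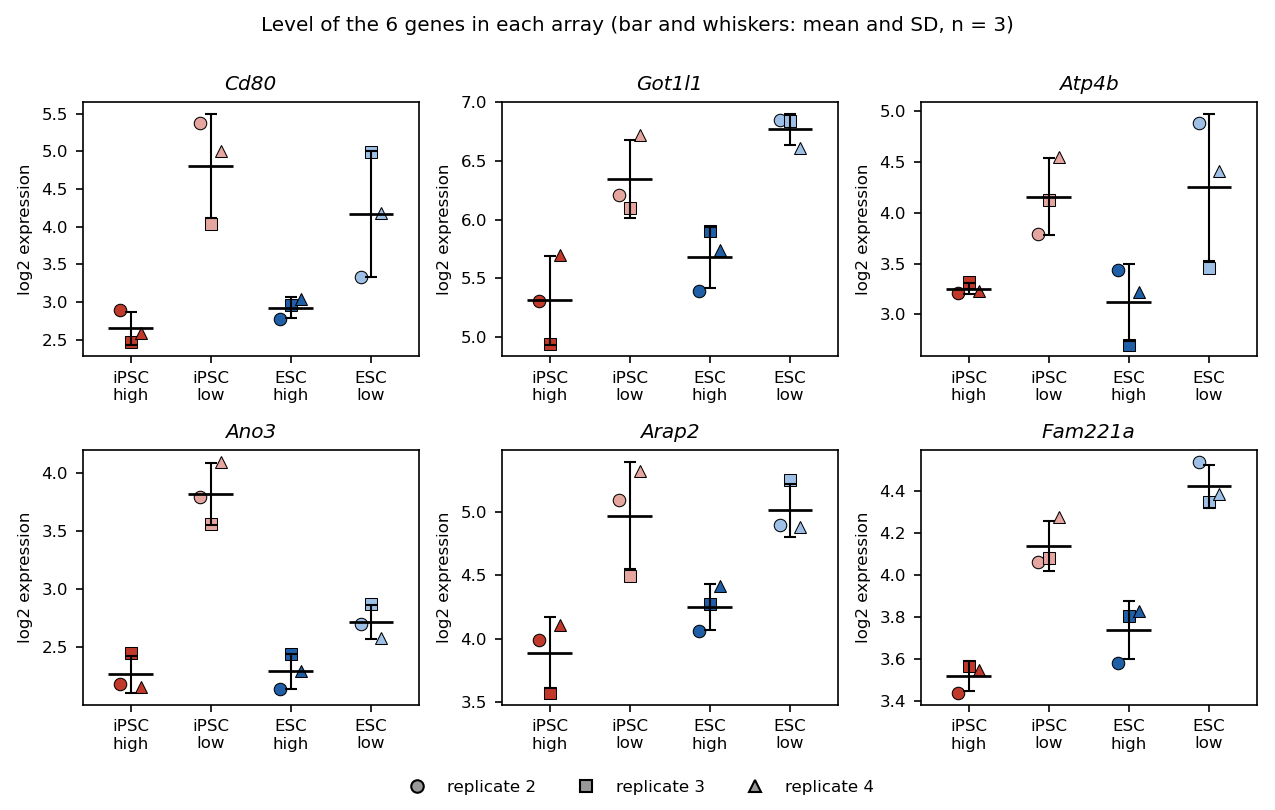
Log2 expression of the 6 genes (vertical axes, a separate scale for each gene) in the 4 groups, with 1 point per array shaped by replicate number and the mean and SD of 3 arrays. In each panel the points of the high fraction lie below those of the low fraction, and Ano3 is highest in the iPSC low arrays (3.56 to 4.09).

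In all 6 genes every high array was below every low array over both cell types, as in 0.877% of all probe sets. Within ESC this held for all 6, as for 6.36% of probe sets, and within iPSC likewise, as for 9.57%. All 6 were lower in the high array of every numbered pair, as 7.01% were. These counts follow from how the genes were chosen. Over both cell types the differences were -1.70 ± 0.26 in Cd80, -1.06 ± 0.15 in Got1l1, -1.02 ± 0.22 in Atp4b, -0.99 ± 0.10 in Ano3, -0.92 ± 0.14 in Arap2 and -0.65 ± 0.07 in Fam221a. Counted from the most lowered of all 25206 probe sets their ranks were 5, 22, 24, 25, 31 and 72. In iPSC alone Ano3 ranked 10 and Cd80 4, and in ESC alone Ano3 ranked 391 and Cd80 8. These are bulk RNA values, in which fewer cells that express a gene and less mRNA per cell cannot be told apart.

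**Figure D2:**
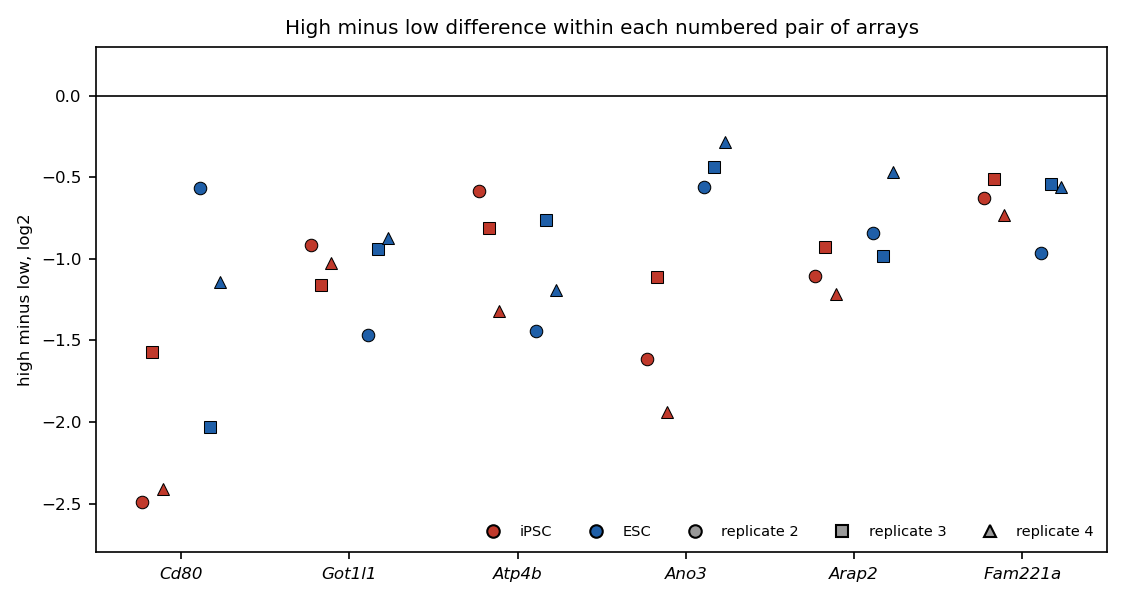
High minus low log2 difference (vertical axis) of each gene in the numbered pairs of arrays, 3 of iPSC (left of each gene) and 3 of ESC (right). All differences are below 0, from -2.49 in Cd80 (iPSC replicate 2) to -0.28 in Ano3 (ESC replicate 4).

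iPSC were compared with ESC by the difference averaged over the fractions, a contrast other than those that chose the genes. Ano3 was higher in iPSC by 0.54 ± 0.10, with a 95% interval of 0.32 to 0.76. The high groups overlapped in Ano3 level (2.26 ± 0.16 in iPSC and 2.29 ± 0.15 in ESC), and the low groups did not (3.81 ± 0.27 in iPSC and 2.71 ± 0.15 in ESC). The difference thus lay in the iPSC low arrays, whose high level also made the fall in iPSC that helped choose the gene. The fit called it (adjusted p = 0.0145, limma, and 0.0351 with the 6 numbered pairs as a random block), but that call is not independent of the choice of Ano3, and its difference is a description. Of the other 5 genes 0 were called higher and 0 lower (0 and 2 at an unadjusted p under 0.05, limma), where 0.916% of all probe sets were called higher, 1.96% lower and 2.87% in either direction. With the random block 143 probe sets were called higher and 320 lower, against 231 and 493 without it.

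The remaining 5 genes did not pass between the cell types. Fam221a was at -0.25 ± 0.07 (adjusted p = 0.0956, limma) and Got1l1 at -0.40 ± 0.15 (adjusted p = 0.205, limma), with 95% intervals of -0.41 to -0.09 and -0.71 to -0.08 before adjustment. Arap2 was at -0.20 ± 0.14 (interval -0.51 to 0.11), Cd80 at 0.18 ± 0.26 (interval -0.39 to 0.75) and Atp4b at 0.02 ± 0.22 (interval -0.45 to 0.49). The intervals of all 5 genes leave room for a difference of over 0.4 log2 units. For Cd80 and Atp4b the sign also turned when a single array was left out. Cd80 was at -0.029 without ESC low replicate 2, and Atp4b at -0.18 without ESC low replicate 3. Arap2 was at -0.08 without iPSC low replicate 3.

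**Figure D3:**
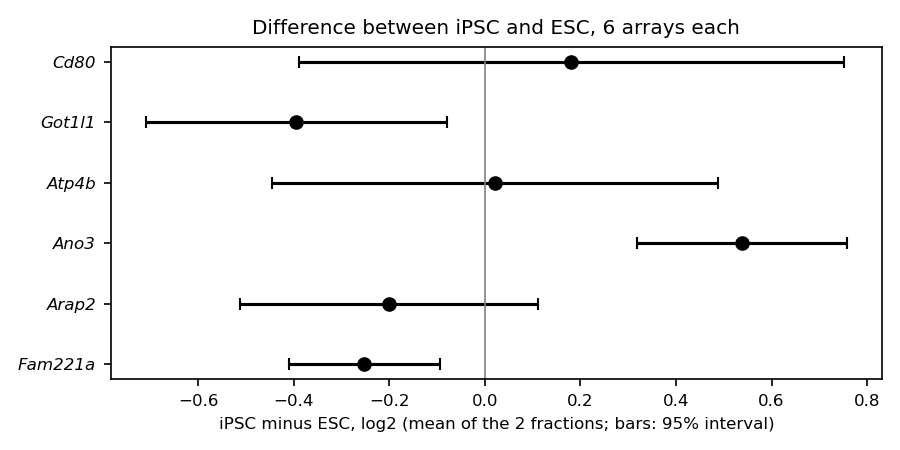
iPSC minus ESC log2 difference (horizontal axis) of the 6 genes, averaged over the high and low fractions, with 95% intervals from the fit over 12 arrays. Ano3 lies above 0 at 0.54, and Cd80 and Atp4b have the widest intervals.

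The genes were chosen by their high minus low differences, and whether their spread between arrays of a group also entered the choice is not known. With group means removed, the deviations of Got1l1 and Arap2 over the 12 arrays correlated at 0.79, those of Cd80 and Arap2 at 0.71, and those of Got1l1 and Fam221a at 0.57. Ano3 lay between 0.39 and 0.56 with each of Cd80, Got1l1, Arap2 and Fam221a. Atp4b ran the other way from Cd80, at -0.68, and was at -0.04 with Got1l1. Over the 15 pairs the correlations ran from -0.68 to 0.79 with a median of 0.37, and 10 were above 0. They are descriptions over 12 arrays that share 4 group means and a joint normalization.

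Some arrays that were highest or lowest of their group in several genes can be named, but their share in the correlations above was not tested. Replicate 4 was the highest iPSC low array in every member but Cd80. In iPSC high cells replicate 3 was the lowest in Cd80, Got1l1 and Arap2 and the highest in Atp4b, Ano3 and Fam221a. In iPSC low cells replicate 3 was the lowest of the 3 arrays in Cd80, Got1l1, Ano3 and Arap2, and in ESC low cells replicate 3 was the highest in Cd80, Ano3 and Arap2 and the lowest in Atp4b and Fam221a. The mean of the 6 genes was 4.72, 4.40 and 4.99 in the iPSC low arrays and 4.53, 4.63 and 4.51 in the ESC low arrays. The mean of 23 p53 target genes was 6.25, 6.15 and 6.37 in the same iPSC low arrays and 6.18, 6.26 and 6.19 in the ESC low arrays. Replicate 3 was lowest of its iPSC low group and highest of its ESC low group in both means. In the high fractions the mean of the 6 genes was 3.501, 3.38 and 3.56 in iPSC and 3.56, 3.68 and 3.76 in ESC, and that of the p53 targets was 5.85, 5.84 and 5.90 in iPSC and 5.95, 5.92 and 5.84 in ESC. The order of the arrays was the same for both means in iPSC high cells and opposite in ESC high cells.

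The genes whose levels over the 12 arrays were most like each member's fell into different kinds. For Cd80 they were Trp53inp1, a stress protein induced by p53 (Pearson r = 0.95), Abcb1b, a drug efflux pump of the cell membrane (0.95), and Rev1, a polymerase that copies past DNA damage (0.93). For Got1l1 they were the p53 target Ccng1, a cyclin G (0.96), Ccp110, a centriole cap protein (0.96), and Zmat3, a p53-induced RNA-binding protein (0.94). Arap2 had Ccng1 (0.95), Trp53inp1 (0.95) and the Golgi mannosidase Man1a2 (0.95), and Fam221a had Ccp110 (0.96), Zmat3 (0.96) and the vesicle adaptor subunit Ap3m1 (0.95). The p53 targets Trp53inp1, Ccng1 or Zmat3 were thus among the 3 nearest of 4 of the members.

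Atp4b and Ano3 had other neighbours in pattern. Atp4b was most like Pramel19 (0.97) and Zscan4e (0.97), members of multicopy families in which the copy read by the probe set is uncertain, and Pgrmc2, a haem-binding membrane protein (0.95). Zscan4 genes mark a rare state of stem cells that resembles the 2-cell embryo. Ano3 was most like the mitochondrial ribosomal protein gene Mrpl49 (0.94), Zfp275 (0.93) and the metalloprotease gene Adam9 (0.93). These correlations include the difference between fractions, which the members were chosen for, and the nearest of many genes is high by choice, in part also once group means are removed.

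With group means removed, Atp4b still correlated at 0.93 with Zscan4e and 0.95 with Pramel19, and Cd80 at 0.92 with Trp53inp1. Zscan4e was at 1.41, 2.44 and 2.52 in iPSC high arrays, against 4.56, 5.54 and 6.29 in iPSC low arrays. It was at 3.22, 0.68 and 2.58 in ESC high arrays, against 6.63, 3.40 and 6.65 in ESC low arrays. Replicate 3 was the lowest of both ESC fractions in Zscan4e, as in Atp4b, and in iPSC low cells both genes were highest in replicate 4 and lowest in replicate 2. Cd80 was at -0.62 with Zscan4e, and Ano3 and Arap2 at -0.31. For Mrpl49, Zfp275 and Adam9 the correlations with Ano3 dropped to 0.37, 0.34 and 0.24 once group means were removed.

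**Figure D4:**
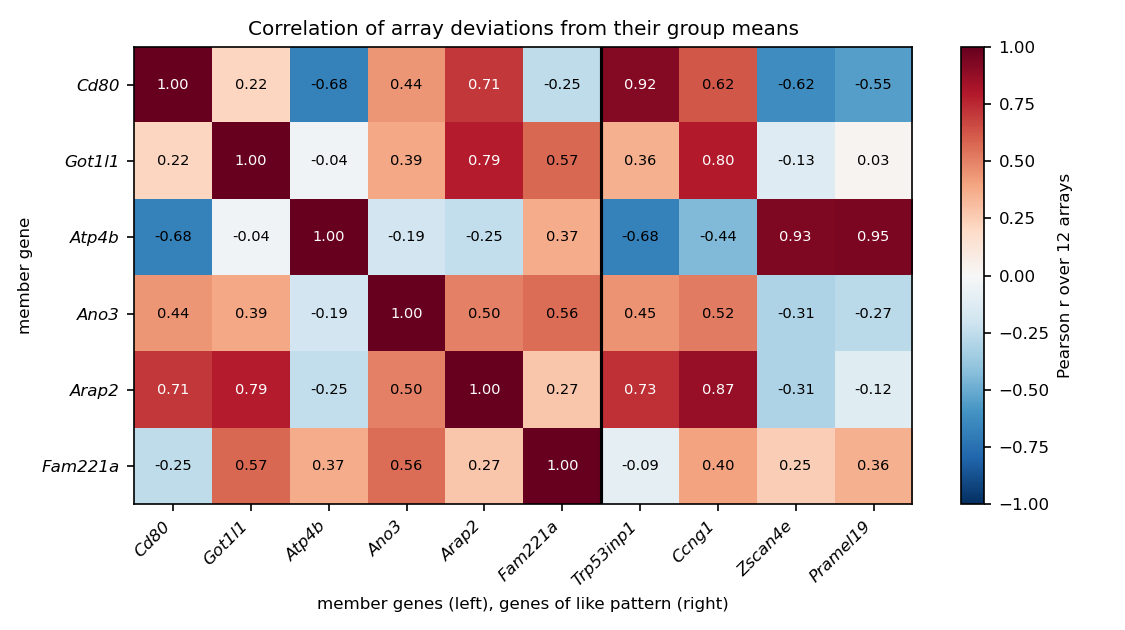
Pearson correlations, over 12 arrays, of deviations from group means between the 6 genes (left of the line) and with 4 genes of like pattern (right). Cd80, Got1l1, Ano3 and Arap2 are positive with both Trp53inp1 and Ccng1. Fam221a is at -0.09 with Trp53inp1 and 0.40 with Ccng1, and Atp4b at -0.68 and -0.44. The p53 target Zmat3, which is not drawn, gives another order. It is at 0.03 with Cd80, 0.64 with Got1l1, 0.51 with Ano3, 0.44 with Arap2, 0.71 with Fam221a and 0.16 with Atp4b. Atp4b is positive with Zscan4e (0.93) and Pramel19 (0.95).

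None of the measured relatives of the 6 genes passed the test between fractions. Of 67 measured genes in 6 lists of relatives, 0 were higher and 0 lower over both cell types at the adjusted threshold (2 higher and 1 lower at an unadjusted p under 0.05, limma), where 1.6% of all probe sets were higher and 0.905% lower (403 and 228 probe sets, or 361 and 368 after centring arrays on their medians, and 417 lower with numbered pairs as a block). Their median was 0.00 and that of all probe sets 0.00, with extremes of -0.23 in Atp12a, the catalytic subunit of another proton pump, and 0.26 in Atp1a4, a sodium pump subunit of sperm.

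In the costimulation list (16 measured), Cd86, the other B7 ligand of CD28 and CTLA-4, was at -0.06 ± 0.10, Cd28 at -0.07 ± 0.10 and Ctla4 at -0.03 ± 0.09. The lowest p in that list was that of Cd40, a receptor of antigen-presenting cells, at 0.17 ± 0.09 (adjusted p = 0.433, limma), followed by Cd70 at 0.11 ± 0.08. Between cell types 1 of the 16 passed, the ICOS ligand gene Icosl, at 0.62 ± 0.13 higher in iPSC (adjusted p = 0.0236, limma), a call lost when any of 7 of the 12 arrays was left out (adjusted p up to 0.0611).

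Among enzymes of aspartate metabolism and the malate-aspartate shuttle (14 measured), the cytosolic Got1 was at -0.05 ± 0.06 and the mitochondrial Got2 at -0.01 ± 0.06. The lowest p values were those of the serine racemase Srr (-0.12 ± 0.07) and the carrier Slc25a11 (0.13 ± 0.11). Among pump subunits (7 measured), Atp4a, the catalytic partner of Atp4b, was at -0.02 ± 0.09, and the levels of Atp4a were 3.25 ± 0.02 in iPSC high, 3.20 ± 0.07 in iPSC low, 3.24 ± 0.23 in ESC high and 3.33 ± 0.20 in ESC low. The lowest p values of that list belonged to Atp1a4 (0.26 ± 0.09, adjusted p = 0.194, limma) and Atp1b4 (0.14 ± 0.06).

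The other 9 anoctamins had a median of -0.01, with the lowest p values for Ano1 (0.12 ± 0.10) and Ano10 (-0.20 ± 0.17). Of 20 ARF GTPase-activating proteins, the paralogs Arap1 and Arap3 were at -0.11 ± 0.14 and 0.04 ± 0.07, and the lowest p values were those of Agap3 (-0.18 ± 0.08, adjusted p = 0.308, limma) and Smap1 (-0.14 ± 0.07). Fam221b was at 0.18 ± 0.10. A p that misses the threshold does not show that these genes were equal between fractions. Their differences were smaller than those of the 6 members, which follows largely from how the members were chosen.

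**Figure D5:**
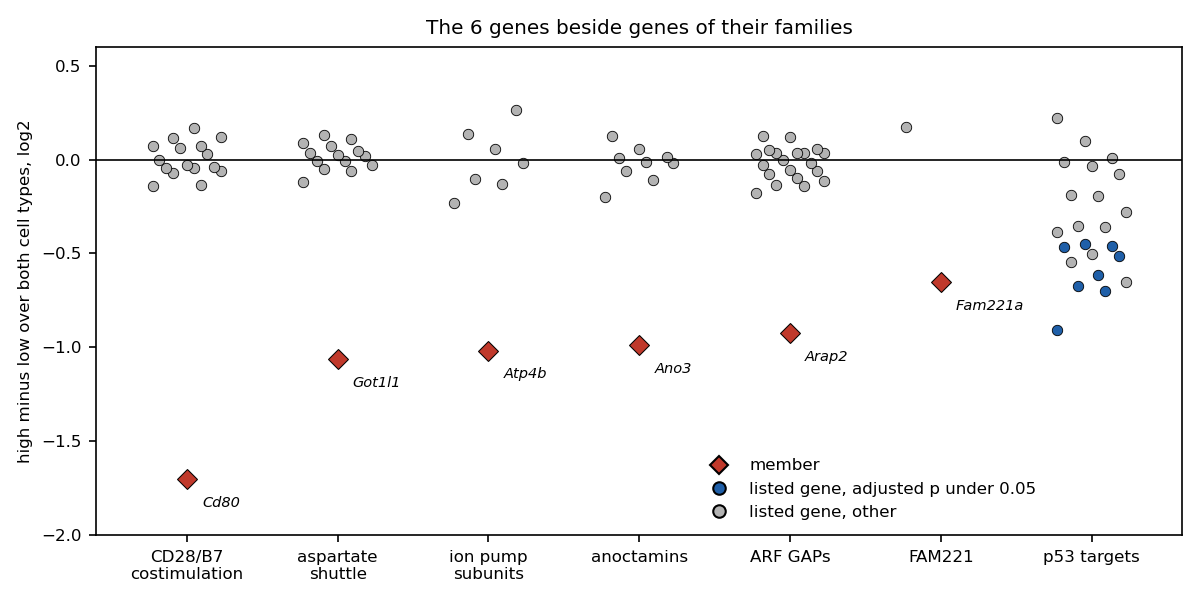
High minus low log2 difference over both cell types (vertical axis) of the 6 genes (diamonds) beside measured relatives and p53 targets (circles, 1 per gene, dark where the adjusted p is under 0.05). Relatives lie between -0.23 and 0.26, and the p53 targets that passed lie below 0.

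The p53 target list was added because earlier results of these data showed its fall, so it is no independent evidence of that direction. Of its 23 measured genes 8 were lower and 0 higher over both cell types (16 lower and 1 higher at an unadjusted p under 0.05, limma). Over all probe sets 0.905% were lower and 1.6% higher. The other 15 genes of the list did not pass. Of the 23 genes 20 lay below 0, with a median of -0.38 against 0.00 over all probe sets. Trp53inp1 fell by 0.91 ± 0.10 (adjusted p = 0.000731, limma). The translesion polymerase Polk was at -0.67 ± 0.08, the receptor Eda2r at -0.70 ± 0.12, Ccng1 at -0.61 ± 0.09 and Zmat3 at -0.51 ± 0.08. The p53 ubiquitin ligase Mdm2 was at -0.45 ± 0.07, the death receptor Tnfrsf10b at -0.46 ± 0.10 and Phlda3, an inhibitor of AKT signalling, at -0.46 ± 0.10. The calls of Tnfrsf10b and Phlda3 were lost when any of 5 and of 11 of the arrays was left out (adjusted p up to 0.0581 and 0.0998). Between iPSC and ESC 0 of the 23 passed (2 higher and 3 lower at an unadjusted p under 0.05, limma).

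The nearest named measured genes on either side of the members, or within them, did not pass the test. Of the 12 named genes whose reference positions come next before and after a member's, 0 were higher and 0 lower over both cell types (1 higher and 2 lower at an unadjusted p under 0.05, limma). Over all probe sets 1.6% were higher and 0.905% lower at the adjusted threshold. The 12 genes ranged from -0.28 in Ccdc126 to 0.27 in Grk1. Cd80 lies on chromosome 16 between Pla1a (-0.03 ± 0.24) and Timmdc1, a complex I assembly factor (0.01 ± 0.07). Got1l1 and Atp4b both lie on chromosome 8, with Rab11fip1 (-0.23 ± 0.10) and the translation inhibitor Eif4ebp1 (0.03 ± 0.08) beside Got1l1, and the E2F partner Tfdp1 (-0.14 ± 0.08) and the rhodopsin kinase Grk1 beside Atp4b. Ano3 on chromosome 2 adjoins Slc5a12 (0.05 ± 0.08) and holds Muc15 within its span (-0.11 ± 0.09). For Arap2 on chromosome 5 the nearest were G6pd2 (0.03 ± 0.10) and Dthd1 (0.05 ± 0.06). G6pd2 ends at base 61810477 and Arap2 starts at 62602445, so they do not adjoin. Fam221a on chromosome 6 had both neighbours below 0, Ccdc126 (-0.28 ± 0.11, adjusted p = 0.232, limma) and the testis kinase Stk31 (-0.265 ± 0.14, adjusted p = 0.393, limma).

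Lists of markers were read for the cell types in which some of these genes are known and for fibroblasts. In the list of antigen-presenting and blood cells 2 of 16 rose over both cell types and 0 fell, where 1.6% of all probe sets rose and 0.905% fell. The 2 were the lysosomal Cd68 (0.82 ± 0.09, adjusted p = 0.000828, limma) and the B-cell receptor component Cd79a (0.78 ± 0.19, adjusted p = 0.0472, limma, lost when any of 10 of the arrays was left out, up to 0.11). The list's mean ranged from 3.35 to 3.43 in iPSC high arrays, against 3.24 to 3.32 in iPSC low arrays, and from 3.20 to 3.30 in ESC high arrays, against 3.16 to 3.17 in ESC low arrays. Of the 16 genes 7 were below 0 over both cell types (median 0.02, against 0.00 over all probe sets), and in ESC 9 were. The part of these markers in the levels of Cd80 was not tested. Between iPSC and ESC 1 of the 16 was higher, the invariant chain gene Cd74 (0.43 ± 0.09, adjusted p = 0.0248, limma, and 0.056 with the random block), a call also lost when any of 5 of the 12 arrays was left out (adjusted p up to 0.0712). Of 6 markers of gastric parietal cells, 10 of spermatids, 8 of neurons and 12 of fibroblasts, 0 passed in any of these lists (0, 4, 0 and 1 higher and 0, 0, 0 and 1 lower at an unadjusted p under 0.05, limma). Mean levels of the parietal list were 2.64 to 2.70 in iPSC high arrays, against 2.51 to 2.64 in iPSC low arrays, and 2.57 to 2.73 in ESC high arrays, against 2.58 to 2.70 in ESC low arrays. Those of the spermatid list were 2.82 to 2.93 in iPSC high arrays, against 2.77 to 2.83 in iPSC low arrays, and 2.83 to 2.88 in ESC high arrays, against 2.69 to 2.82 in ESC low arrays.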

How the data were processed

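The authors deposited log2 values of 12 Affymetrix arrays, made with RMA (affy 1.36.1, R 2.15.1), per the submitters' processing notes. RMA removes background, forces all arrays to 1 distribution by quantiles and merges the probes of a probe set, so levels are relative within these arrays. Genome build and chip definition were not given in the sources. Probe sets were named by gene number through the platform annotation (23185 with 1 symbol, 2021 with none), and a RefSeq table of GRCm38.p6 changed 0 symbols. The number of arrays, not a depth, limits the precision.

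All 25206 probe sets were fitted in limma 3.58.1 (R 4.3.3) with 1 mean per group and no block, with Benjamini-Hochberg adjustment over all of them and a threshold of 0.05. The fit was tested on simulated data. Differences carry the standard error of that fit, and group means the SD over 3 arrays. Figures were drawn with matplotlib 3.10.9.

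High and low arrays with the same number deviated together from their group means, with correlations of 0.11, 0.13 and 0.21 in iPSC and 0.34, 0.23 and 0.28 in ESC. The numbers were therefore taken as pairs within a cell type, which the data and not the labels support. Alternatives were the numbered pairs as a replicate block (fixed for high minus low, random with a correlation of 0.19 for iPSC minus ESC), a variance trend, median centring, leaving out probe sets with a mean under 2.15, fits to 1 cell type, and leaving out each array.

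The 6 members and the gene lists were chosen with earlier results of these data known. Besides the members, the text names the listed genes past the threshold over both cell types or else the 2 with the lowest p, the named genes next before and after a member in the reference order, and the 3 genes with the highest Pearson correlation with a member, apart from microRNA, small nucleolar RNA, predicted and clone-named genes. Cd86, Cd28, Ctla4, Got1, Got2, Atp4a, Atp12a, Arap1, Arap3, Icosl, Cd74 and the correlations of members with another member's like genes are outside that rule and were chosen after their values were seen.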

Additional observations from a re-analysis of the deposited data

How the results depend on the processing

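The high minus low differences of the 6 genes kept their sign under every alternative run, and leaving out single arrays moved them over both cell types between -1.91 and -1.50 in Cd80, -1.16 and -0.97 in Got1l1, -1.22 and -0.86 in Atp4b, -1.05 and -0.92 in Ano3, -1.04 and -0.83 in Arap2 and -0.68 and -0.61 in Fam221a. In ESC, Cd80 ranged from -1.67 to -0.83. The count of members past the threshold between iPSC and ESC was 1 throughout (Ano3, adjusted p at most 0.0402, limma), a call that is not independent of the choice of that gene. Between iPSC and ESC, leaving out single arrays moved Atp4b between -0.18 and 0.18 and Cd80 between -0.029 and 0.39, neither of which passed. Atp4b lay at -0.18 when ESC low replicate 3 was left out, at -0.0848 for ESC high replicate 3 and at -0.0777 for iPSC low replicate 4, and Cd80 lay at -0.029 for ESC low replicate 2. Every other value of a member kept its direction and its side of the threshold under the alternatives run.

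Counts over all probe sets depended more on the fit. With the replicate block within cell types 146 were higher and 31 lower in ESC (77 and 13 without it), 142 and 94 in iPSC (88 and 50), and 417 lower over both cell types (228). The random block gave 143 higher and 320 lower in iPSC against ESC. The block ended no call of a member and, among listed genes called over both cell types or between iPSC and ESC, only that of Cd74 (adjusted p = 0.056, limma). Median centring gave 361 higher and 368 lower over both cell types (403 and 228 as deposited), and 70 higher and 85 lower in iPSC. The 6 ESC arrays alone gave 36 and 3. Without single arrays the higher and lower counts ranged from 17 to 98 and 1 to 18 in ESC, 0 to 148 and 1 to 63 in iPSC, 261 to 444 and 118 to 251 over both cell types, and 122 to 236 and 272 to 444 in iPSC against ESC. Genes of the lists of relatives and p53 targets that were lower numbered 8, 10 with the block and 6 to 9 without single arrays, and 0 were higher. The cause of these moves was not tested.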
